A study of Mus musculus with 2 samples.

Results

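Rab GTPases, the small GTP-binding proteins that give membrane compartments their identity, were followed in naive CD4 and naive CD8 T cells. Members were the gene symbols in which Rab is followed by a number and at most 1 letter and 1 more digit, whatever their level, and 56 of the 23167 symbols in the deposited files matched. Both cell types came from Foxp3-GFP mice, a reporter strain on a C57/BL6 background in which cells that express the regulatory T cell factor Foxp3 carry GFP. Spleen and lymph node cells were sorted as CD62L-high, CD44-low and negative for CD25 and for the Foxp3 reporter, in the CD4 lineage for one library and the CD8 lineage for the other. Ribosomal-RNA-depleted total RNA of each was sequenced as 1 library, so there is no replicate and no difference below has a check against the spread between animals or sorts. The sources used here do not give the number of mice, their age or whether cells of several animals were pooled. Levels are RPKM, reads per kilobase of gene scaled to the size of the library, and where 2 levels are joined by "and" the CD4 library comes first.

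A Rab protein switches between a GTP-bound form, which recruits effectors such as tethers, motors and kinases to a membrane, and a GDP-bound form, which is taken off the membrane and kept soluble in the cytosol. Exchange factors load GTP, GTPase-activating proteins hasten its hydrolysis, and a lipid anchor added with the help of Rab escort protein holds the GTPase on its membrane. In T cells Rab proteins are known for recycling of the T cell receptor to the contact with an antigen-presenting cell, and, in effector CD8 cells, for docking of cytotoxic granules.

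The coreceptor genes followed the labels, with Cd4 at 305 and 8.89 RPKM and Cd8a at 2.50 and 518. The totals recovered from the values were 24741945 reads (CD4) and 23853921 (CD8). Of marker lists of other cell types, 8 B cell genes summed to 3.76 RPKM in CD4 and 30.6 in CD8, of which Cd79b made up 28.8. The 6 NK cell genes, of which 4 reached 1 RPKM, summed to 37.1 and 73.2 RPKM, mostly from Prf1, with Klra8 listed at 0 in both. The 8 monocyte and macrophage genes found, of which 4 reached 1 RPKM, summed to 12.1 and 6.65 RPKM, with Cd14 listed at 0 in both. Erythroid, platelet and dendritic cell lists summed to at most 1.34 RPKM. Neutrophil genes summed to 3.26 and 5.61 RPKM, and stromal and endothelial genes to 105 and 52.5, nearly all from Pecam1. Regulatory T cell genes summed to 6.71 and 14.4 RPKM, with Ctla4 and Ikzf2 higher in CD8, while Foxp3 itself had 136 reads in CD4 against 15. In bulk RNA, fewer cells of a type and less RNA per cell cannot be told apart.

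Most of the family was expressed at similar levels in both cell types, and the same few members led it. Of the 56 genes, 37 reached 1 RPKM in at least 1 library and were compared, and 19 stayed under it. The compared members ran from 1.17 RPKM (Rab31) to 103 (Rab8a) in CD4 and from 1.09 to 104 for the same genes in CD8. Their median level was 17.5 RPKM in CD4 and 15.6 in CD8, against 14.1 and 13.4 over all 10228 compared symbols. All 56 summed to 871 RPKM in CD4 and 821 in CD8. Rab8a, Rab1b, Rab5c and Rab35 were the 4 highest in that order in both libraries, and the 5 highest held 40.9% of the summed RPKM in CD4 and 41.1% in CD8. The 10 highest held 62.0% and 61.0%, and 8 of them were shared.

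**Figure D1:**
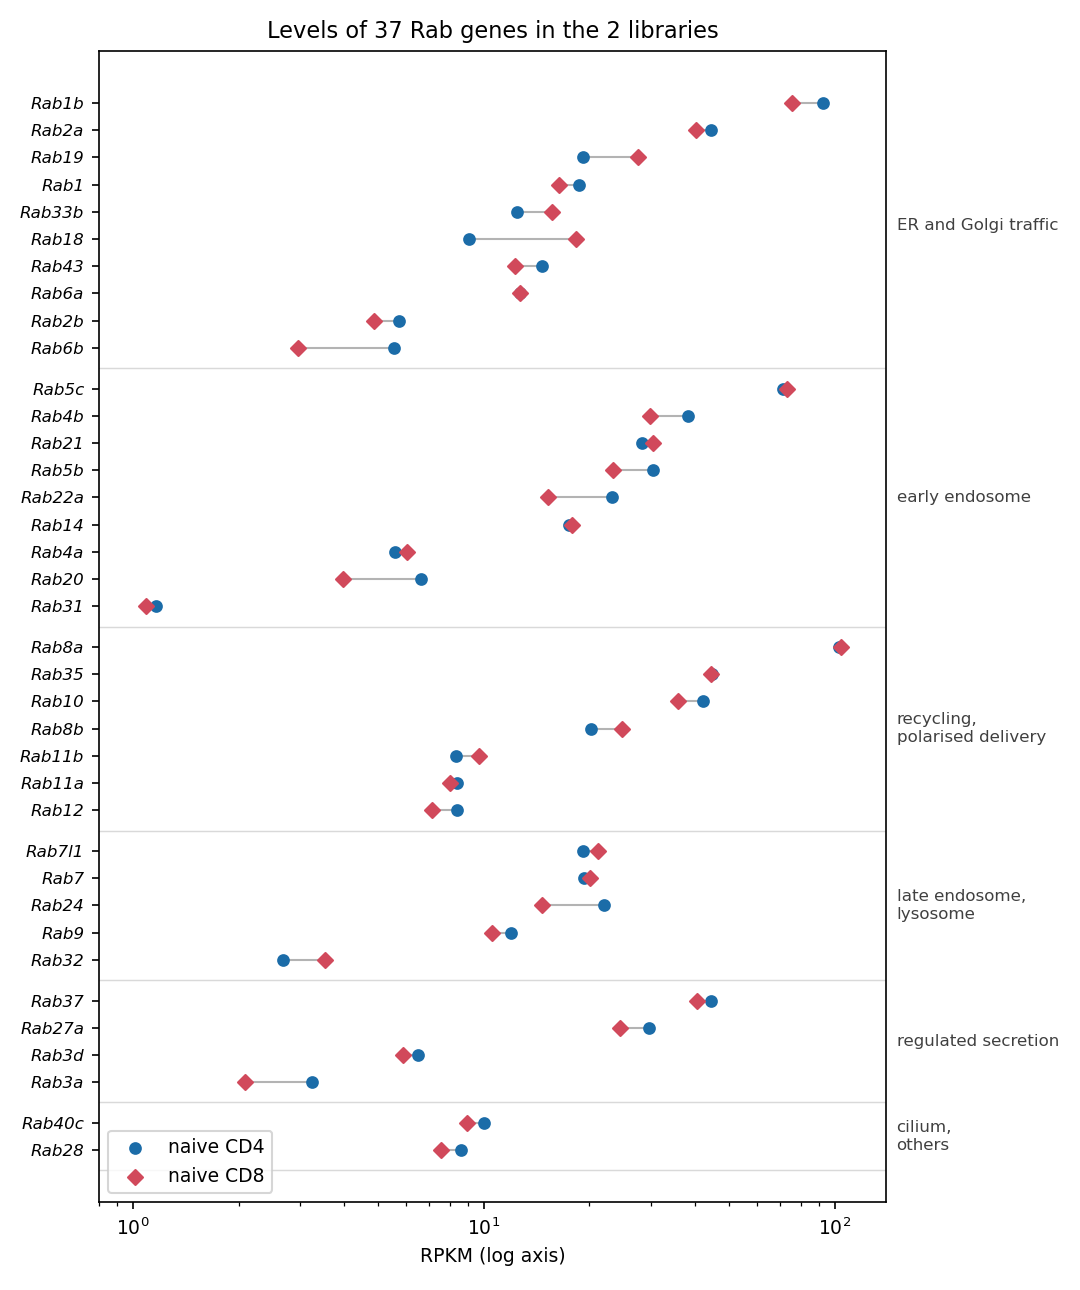
Levels of the 37 compared Rab genes, grouped by compartment and ordered by mean level. Circles are the naive CD4 library and diamonds the naive CD8 library, in RPKM on a log axis, with 1 library per cell type and no error bar. The pairs lie close together except for Rab18, at 9.05 and 18.3 RPKM, and a few genes higher in CD4 such as Rab6b, at 5.55 and 2.95.

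Of the 37 members 0 passed the 2-fold rule, an absolute difference of 1 or more in log2(RPKM + 1) between the libraries, which 5.48% of all compared symbols did. Of those symbols 2.41% were that much higher in CD4 and 3.07% in CD8. The closest was Rab18, at a log2 difference of -0.94, and it stood at 2.02-fold without the added 1 RPKM. At 1.5-fold, 2 members were higher in CD4 (Rab6b and Rab20), beside 8.07% of all compared symbols, and 1 was higher in CD8 (Rab18), beside 7.47%. Together these 3 made 8.11% of the 37 members, and the size rule took 15.5% of all compared symbols. Rab22a, at a log2 difference of 0.58, and Rab24, at 0.56, lay just under the 1.5-fold rule. The median log2 difference (CD4 minus CD8) was 0.13 over the members and 0.08 over all compared symbols, and the median absolute difference was 0.19 against 0.25. On the log2 scale 24 members were above 0 and 13 below it, beside 6083 and 4145 of all compared symbols. That balance depended on the scaling, with 20 of 37 above 0 after centring on the median gene and 32 of 38 after bringing each library to the same summed RPKM. After centring, Rab11a, Rab31, Rab35 and Rab6a lay on the other side of 0. After the sum scaling it was Rab14, Rab21, Rab4a, Rab5c, Rab7, Rab7l1 and Rab8a, so none of these 11 genes is given a direction here.

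**Figure D2:**
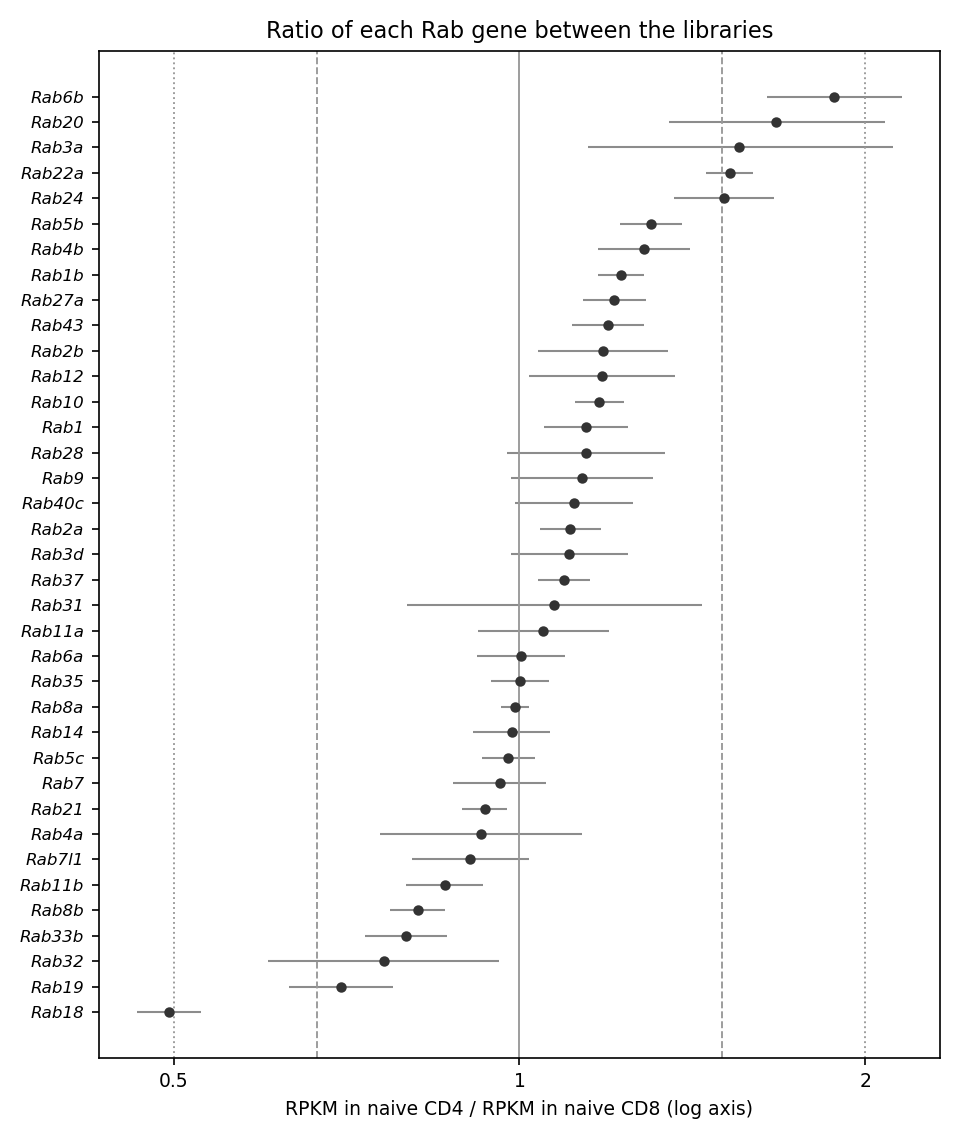
Ratio of RPKM in naive CD4 to RPKM in naive CD8 for each of the 37 compared Rab genes, without an added constant, on a log axis. Bars are exact 95% intervals from the recovered reads and cover counting error only. Dashed lines mark 1.5-fold and dotted lines 2-fold, and Rab18 lies at the CD8 end and Rab6b at the CD4 end.

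The promoters of 5 members are shown for the range of levels they span: Rab8a, the highest member, Rab6b and Rab20, both of the genes past 1.5-fold toward CD4, Rab19, which had the next largest difference toward CD8 after Rab18, and Rab3b, listed at 0 in both libraries. Each run is the 250 bases before the annotated start, 5′ to 3′ on the gene's strand, from RefSeq on GRCm38.p6. Capitals mark CG dinucleotides, the substrate of DNA methylation and of the 5-hydroxymethylcytosine that the series is about, which was not measured in these files.
Rab8a, chr8:72160950-72161199, plus strand: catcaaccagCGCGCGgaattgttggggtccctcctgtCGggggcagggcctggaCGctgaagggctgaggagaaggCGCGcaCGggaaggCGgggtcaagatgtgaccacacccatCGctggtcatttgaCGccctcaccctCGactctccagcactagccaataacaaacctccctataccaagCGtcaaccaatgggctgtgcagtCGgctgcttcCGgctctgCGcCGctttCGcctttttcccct
Rab6b, chr9:103111824-103112073, plus strand: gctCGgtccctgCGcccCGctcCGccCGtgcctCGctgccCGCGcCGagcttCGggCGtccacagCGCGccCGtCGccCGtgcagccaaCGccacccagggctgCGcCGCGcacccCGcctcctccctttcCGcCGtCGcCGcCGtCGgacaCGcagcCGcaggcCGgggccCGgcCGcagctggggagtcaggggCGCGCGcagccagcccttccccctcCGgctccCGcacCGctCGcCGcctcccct
Rab20, chr8:11478641-11478890, minus strand: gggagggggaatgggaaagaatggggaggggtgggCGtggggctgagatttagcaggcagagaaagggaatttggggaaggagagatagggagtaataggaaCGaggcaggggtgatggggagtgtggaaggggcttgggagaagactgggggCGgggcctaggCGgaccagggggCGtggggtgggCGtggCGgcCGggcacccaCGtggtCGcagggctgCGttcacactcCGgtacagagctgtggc
Rab19, chr6:39381103-39381352, plus strand: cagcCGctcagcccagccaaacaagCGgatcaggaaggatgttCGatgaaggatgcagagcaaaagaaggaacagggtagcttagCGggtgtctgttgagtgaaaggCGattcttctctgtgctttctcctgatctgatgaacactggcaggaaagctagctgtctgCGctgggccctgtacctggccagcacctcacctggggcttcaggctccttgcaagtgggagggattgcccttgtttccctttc
Rab3b, chr4:108878820-108879069, plus strand: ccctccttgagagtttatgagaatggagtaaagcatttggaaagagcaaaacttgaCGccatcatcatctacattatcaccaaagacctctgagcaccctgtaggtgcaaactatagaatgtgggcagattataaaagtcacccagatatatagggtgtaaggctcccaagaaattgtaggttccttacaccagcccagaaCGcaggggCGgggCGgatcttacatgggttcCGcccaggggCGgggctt
These windows held 18 CG in Rab8a, 40 in Rab6b, 12 in Rab20, 6 in Rab19 and 6 in Rab3b. The 2 windows with 6 CG each thus belonged to a gene at 19.2 and 27.4 RPKM and to one with no reads listed.

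A promoter window was found for 46 of the 56 members, taking the window with the most CG where a gene had several. Windows on chromosome 18 were left out, for the members and for all genes alike, so a member on that chromosome has none here. Rab18, Rab26, Rab27b, Rab2a, Rab30, Rab36, Rab37, Rab38, Rab44 and Rab4a had none among the windows used. The 33 compared members had a median of 20 CG per window and the 13 members under 1 RPKM a median of 11. Over all genes of the files with a window, the compared ones had a median of 18 CG (7309 genes) and those under 1 RPKM a median of 4 (8433 genes). At least 15 CG stood in 22 of the 33 compared members (66.7%), against 62.8% of all compared genes, and in 6 of the 13 low members (46.2%), against 21.5% of all low genes. Rab23, at 0.803 and 0.459 RPKM, had the most CG of the family at 42, and Rab32, with 5, was at 2.68 and 3.52 RPKM. The E-box CACGTG, which reads the same on both strands, was in 2 of 46 windows (Rab20 and Rab21), 4.35% against 6.19% of all RefSeq genes with a window. The Ets-type motif CCGGAAG, searched on both strands, was in 3 (Rab8a, Rab11a and Rab24), 6.52% against 7.38%. In the windows used, all of these matches were in compared members. CACGTG was in 6.06% of the compared members and CCGGAAG in 9.09%, against 9.17% and 16.9% of all compared genes. CACGTG was also in a window of Rab23, a member under 1 RPKM, and in one of Rab27a. These windows had fewer CG than the ones used and were left out. A match is a run of letters and not a known site.

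**Figure D3:**
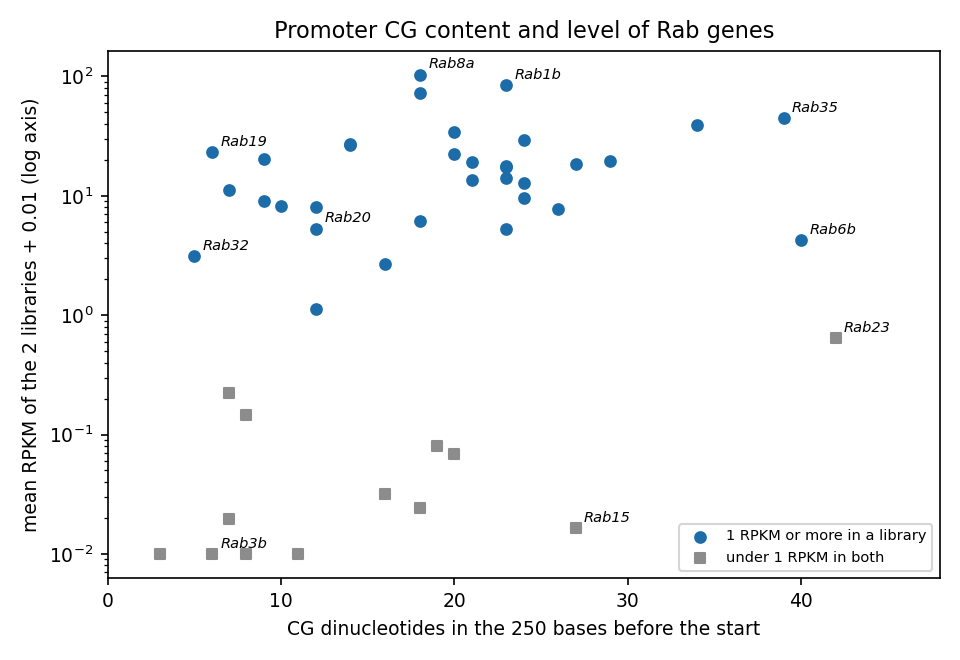
CG dinucleotides in the 250 bases before the start (x axis) against the mean RPKM of both libraries plus 0.01 on a log axis (y axis), for the 46 Rab genes with a window. Circles are members at 1 RPKM or more in a library and squares those under it. Members with few CG occur at both levels, Rab19 and Rab3b among them with 6 each.

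Rab proteins of the endoplasmic reticulum and Golgi held both the widest differences and the second highest member. Of 16 such genes 10 were compared, and they made up 27.0% of the summed Rab RPKM in CD4 and 27.6% in CD8. Rab1b, which with Rab1 drives transport from the endoplasmic reticulum to the Golgi, was at 92.7 and 75.7 RPKM (1.23-fold higher in CD4, 95% counting interval 1.17 to 1.28). Rab1 followed at 18.7 and 16.4 RPKM (1.14-fold, 1.05 to 1.24). Rab2a, of the early secretory pathway, was at 44.4 and 40.1 RPKM (1.11-fold, 1.04 to 1.18). All 3 were slightly higher in CD4. With the fewest reads possible for Rab2a, 751 and 654, its interval would be 0.996 to 1.23, which includes equal levels.

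Rab18, a regulator of lipid droplets and of contacts with the endoplasmic reticulum, had the largest difference of the family. It was at 9.05 and 18.3 RPKM, 2.02-fold higher in CD8 (1.89 to 2.15). Its interval rests on 1456 and 2834 reads at a length of 6500 bases. The values fix only the ratio of reads to length, and the fewest reads possible, 56 and 109, would give 1.45 to 2.84. The gene was 2-fold or more higher in CD8 with a pseudocount of 0.1 RPKM, without one, and after centring, and was under it at log2 differences of -0.73 with a pseudocount of 5 RPKM and -0.77 after the sum scaling. Rab3gap1 and Rab3gap2, which form the exchange factor complex of Rab18 as well as a Rab3 GTPase-activating complex, lay the other way. Rab3gap1 was at 45.4 and 37.4 RPKM (1.21-fold higher in CD4, 1.16 to 1.27) and Rab3gap2, picked for this role outside the naming rule, at 9.69 and 8.12 RPKM (1.19-fold, 1.11 to 1.28). The tether genes Nbas, Zw10 and Rint1, known to bind Rab18 and also picked outside the rule, were 1.38-fold, 1.40-fold and 1.34-fold higher in CD4.

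Rab6b was the member with the largest difference toward CD4, at 5.55 against 2.95 RPKM (1.88-fold, 1.64 to 2.15), from 649 and 333 reads. It fell under 1.5-fold with a pseudocount of 5 RPKM, at a log2 difference of 0.41. Its paralogue Rab6a, the widespread Golgi Rab6, was at 12.7 RPKM in both. Rab6b therefore made up 30.4% of the summed RPKM of this pair in CD4 and 18.9% in CD8. Rab19 was at 19.2 and 27.4 RPKM (1.43-fold higher in CD8, 1.29 to 1.59). Rab33b, a Golgi Rab with a part in autophagy, was at 12.5 and 15.6 RPKM (1.26-fold higher in CD8, 1.16 to 1.36). With the fewest reads possible its interval would be 1.04 to 1.51. Rab43, at 14.6 and 12.3 RPKM, and Rab2b, at 5.74 and 4.85, were under 1.2-fold apart. Thus 3 members of this compartment were higher in CD8 and 7 were at or above the CD8 level in CD4. Over all compared symbols 4145 were higher in CD8 and 6083 in CD4. Rab33a, Rab34, Rab30, Rab39, Rab36 and Rab39b were under 1 RPKM. Of these Rab30 was listed at 0 in CD4 and at 0.131 RPKM in CD8, which fits between 3 and 30 reads.

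Early endosome members were led by Rab5c, which with its paralogues directs fusion of endocytic vesicles, at 71.4 and 73.0 RPKM. Rab5b was at 30.3 and 23.3 RPKM (1.30-fold higher in CD4, 1.22 to 1.39). Rab5a was not analysed here. Rab4b, of the fast recycling route, was at 38.2 and 29.7 RPKM (1.28-fold, 1.17 to 1.41), and its paralogue Rab4a at 5.58 and 6.03. Rab21, which handles integrin endocytosis, was at 28.3 and 30.3 RPKM. Rab14 was at 17.5 and 17.8.

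Of the 9 compared early endosome members 1, Rab20, passed 1.5-fold (11.1%), beside 15.5% of all compared symbols. Rab22a, of early endosome to recycling traffic, was at 23.2 and 15.2 RPKM (1.52-fold higher in CD4, 1.45 to 1.599), past 1.5-fold without the added 1 RPKM and under it with it. With the fewest reads possible the Rab22a interval would be 1.38 to 1.68. Rab20, a Rab of endosomes and phagosomes, was at 6.62 and 3.96 RPKM (1.67-fold higher in CD4, 1.35 to 2.08), from 236 and 136 reads. With the fewest reads possible, 59 and 34, the interval would be 1.08 to 2.63. Rab20 fell under 1.5-fold after centring, at a log2 difference of 0.54, and with a pseudocount of 5 RPKM, at 0.38. The monocyte and macrophage list was higher in the same library (12.1 against 6.65 RPKM summed), and its part in the Rab20 difference was not tested. Of its members, Fcgr3 had 162 and 39 reads, Itgam 186 and 62, Cd68 90 and 54, Lyz2 43 and 54, Csf1r 20 and 16, Emr1 4 and 17 and Mpeg1 7 and 8, and Cd14 was listed at 0 in both. Rab31 was the lowest compared member, at 1.17 and 1.09 RPKM, and Rab17 was listed at 0 in both libraries.

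Of the members of recycling and polarised delivery 7 of 10 were compared and 0 passed 1.5-fold, beside 15.5% of all compared symbols. With so few members a count of 0 is near that share. Rab8a, which moves cargo from recycling endosomes and the Golgi to the plasma membrane, was at 103 and 104 RPKM from 10210 and 9934 reads (1.01-fold, 0.982 to 1.04). Rab35, of fast endocytic recycling and T cell receptor delivery to the contact site, was at 44.6 and 44.5 RPKM (1.002-fold, 0.945 to 1.06). Neither interval excludes equal levels. Rab10, known for delivery of glucose transporter vesicles in fat cells, was at 42.0 and 35.8 RPKM (1.17-fold higher in CD4, 1.12 to 1.23). Rab8b was at 20.2 and 24.8 RPKM (1.23-fold higher in CD8, 1.16 to 1.30), so the Rab8 pair was 19.3% Rab8b in CD8 and 16.4% in CD4. With the fewest reads possible the Rab8b interval would be 1.04 to 1.45. Rab11a and Rab11b, the paralogues of the slow recycling endosome, were low and near equal to each other. Rab11a was at 8.39 and 7.995 RPKM and Rab11b at 8.32 and 9.66. Rab12 was at 8.39 and 7.11 RPKM. Rab13, Rab15 and Rab25, known mainly from epithelia and neurons, had at most 5 reads.

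Of 7 late endosomal and lysosomal members 5 were compared, and 0 passed 1.5-fold, beside 15.5% of all compared symbols. Rab7, which governs fusion of late endosomes with lysosomes, was at 19.3 and 20.1 RPKM. Rab7l1, the gene now named Rab29, was at 19.2 and 21.2 RPKM. Of kinase genes picked outside the naming rule, Lrrk2, a known partner of Rab29, had 9 and 22 reads and Lrrk1 had 9 and 17. Rab24, linked to autophagy, was at 22.05 and 14.6 RPKM (1.51-fold higher in CD4, 1.36 to 1.67). In the GENCODE annotation 62.4% of Rab24 exon bases lie opposite exons of Prelid1, at 170 and 143 RPKM. The strand setting of the counting is not given, so reads of these 2 genes cannot be told apart. Same-strand exons of other genes overlapped Rab43 (75.4% of bases) and Rab4b (65.0%), where a strand setting would not separate the reads. Opposite-strand exons overlapped Rab2b (59.3%), Rab20 (25.6%), Rab6a (19.0%) and Rab33b (18.7%), whose values carry the same doubt as Rab24. Of the genes behind these shares only Mrpl48, over Rab6a, has a value here, at 17.8 and 23.7 RPKM. Rab9, of the route from endosomes back to the Golgi, was at 11.9 and 10.5 RPKM (1.13-fold, 0.984 to 1.31). Rab32, of lysosome-related organelles, was at 2.68 and 3.52 RPKM, and Rab9b had at most 4 reads. The Rab32 paralogue Rab38 was listed at 0 in both, while Hps1, a subunit of their exchange factor picked outside the naming rule, was at 19.7 and 16.8 RPKM.

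The 4 compared members of regulated secretion lay above 0 toward CD4, by 1.09-fold to 1.55-fold. Of all 10228 compared symbols 6083 lay above 0 as well. Rab27a, which docks cytotoxic granules at the plasma membrane, was at 29.6 and 24.5 RPKM (1.21-fold higher in CD4, 1.13 to 1.29). Its paralogue Rab27b had 1 read in CD4 and none in CD8. Rab37, a Rab of secretory granules, was at 44.4 and 40.6 RPKM (1.09-fold, 1.04 to 1.15). Of the Rab3 genes, best known from synaptic and endocrine vesicles, Rab3d was at 6.499 and 5.88 RPKM (1.10-fold, 0.983 to 1.24, which does not exclude equal levels) and Rab3a at 3.24 and 2.09 RPKM (1.55-fold, 1.15 to 2.11, from 116 and 72 reads). With the fewest reads possible the Rab3a interval would be 1.01 to 2.42. Rab3c had 3 reads and 1, and Rab3b was listed at 0 in both. Rab26 had 2 reads and 1. On the log2(RPKM + 1) scale 0 of the 4 passed 1.5-fold, beside 15.5% of all compared symbols.

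The remaining members were few. Rab40c, of a Rab branch that joins ubiquitin ligases, was at 10.01 and 8.97 RPKM (1.12-fold, 0.992 to 1.26). Rab28 was at 8.61 and 7.54 RPKM (1.14-fold, 0.975 to 1.34). Rab23, known from the cilium and Hedgehog signalling, had 89 and 49 reads and lay just under the 1 RPKM filter. Rab44 had 12 and 2 reads, and Rab40b was listed at 0 in both. In all, 6 members were listed at 0 in both libraries (Rab17, Rab36, Rab38, Rab39b, Rab3b and Rab40b). The ribosomal protein gene Rpl26, used by all cells, was listed at 0 as well, so a listed 0 is not read as absence.

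Most subfamilies had 1 dominant paralogue, and it was the same one in both cell types. The leading paralogue held at least 80.7% of the summed RPKM in the Rab1, Rab2, Rab4, Rab8, Rab9, Rab27 and Rab33 subfamilies in both libraries. Rab1b held 83.2% of the Rab1 pair in CD4 and 82.2% in CD8, Rab2a held 88.6% and 89.2%, and Rab4b held 87.2% and 83.1%. Rab33b held 98.7% and 98.4% over Rab33a. Rab27a held 99.98% of its pair in CD4. Rab11 was the exception, with Rab11a at 50.2% in CD4 and 45.3% in CD8, and there Rab11b led only in CD8. Rab3d led the Rab3 genes with 66.6% and 73.8%. Paralogues can share reads, and the sources used here do not say how reads with several matches were counted, so shares are uncertain to that extent.

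**Figure D4:**
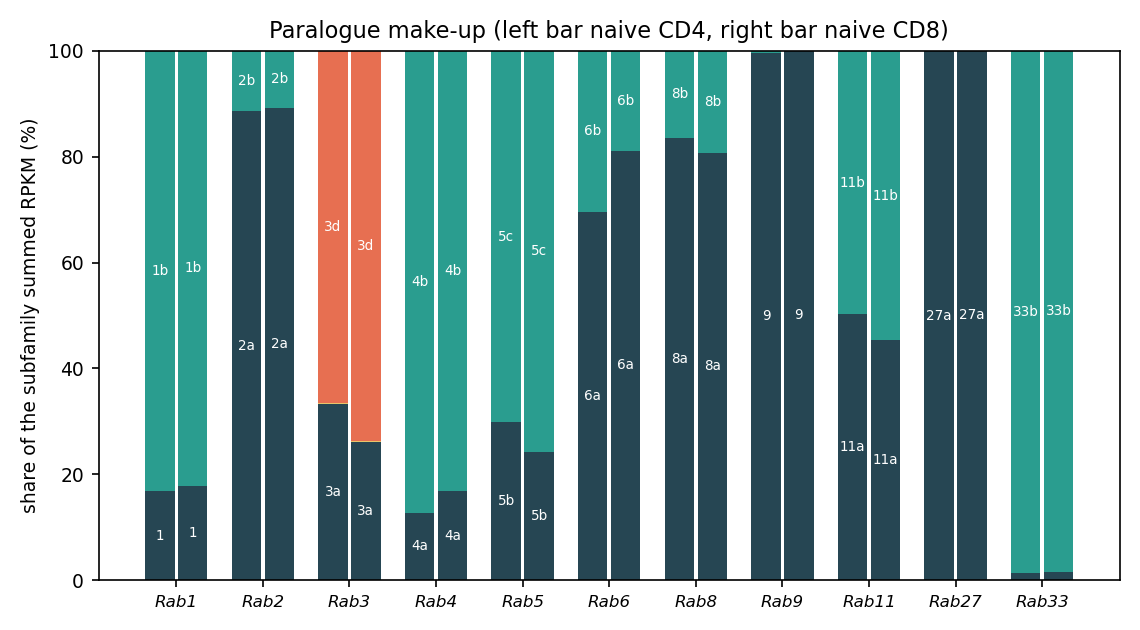
Share of each paralogue in the summed RPKM of its subfamily (y axis, %), with the naive CD4 library as the left bar and the naive CD8 library as the right bar of each pair. Numbers in the bars name the paralogue. The make-up is alike in both, and Rab6 moves most, with Rab6b at 30.4% and 18.9%.

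Some genes that act on or with Rab proteins differed more than any compared member of the family, but as a list they passed 2-fold about as often as all compared symbols. Of 199 genes on 9 lists, 194 were in the files and 160 were compared. The 2-fold rule took 6 toward CD4 and 2 toward CD8, beside 2.41% and 3.07% of all compared symbols. Together these 8 made 5% of the compared genes of the lists, beside 5.48% of all compared symbols. The count toward CD4 was 16 after the sum scaling, with 2 toward CD8, and was 1 with a pseudocount of 5 RPKM, again with 2 toward CD8. At 1.5-fold, 20 were higher in CD4 and 11 in CD8, together 19.4% beside 15.5% of all compared symbols. The median log2 difference was 0.17, beside 0.08 over all.

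The machinery that every Rab shares was even. Of 8 genes for membrane extraction, escort and prenylation 0 passed 1.5-fold, which 15.5% of all compared symbols did. The median log2 difference of these 8 genes was 0.01. Rabac1, a receptor for prenylated Rab proteins, was at 124 RPKM in both, and Rabggtb, a subunit of the enzyme that attaches the lipid, at 53.6 and 51.4 RPKM. The escort protein gene Chm was 1.34-fold higher in CD8 (1.24 to 1.44). Of 4 compared kinase and phosphatase genes 0 passed 1.5-fold. Stk4 was at 187 and 158 RPKM and Tbk1, a kinase of Rab7, at 39.9 and 33.8.

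Of 31 compared GTPase-activating genes, 3 passed 2-fold toward CD4 and 0 toward CD8, and 6 and 0 passed 1.5-fold. Of all compared symbols 2.41% and 3.07% passed 2-fold, and 8.07% and 7.47% passed 1.5-fold, in that order. Both directions together, the list held 9.68% past 2-fold and 19.4% past 1.5-fold, beside 5.48% and 15.5% of all compared symbols. The median log2 difference was 0.19, with 24 genes above 0 and 7 below, beside 6083 and 4145 of all compared symbols. Of the genes below 0, Tbc1d15, picked with its value known, was 1.40-fold higher in CD8 (1.28 to 1.53). Tbc1d4, also called AS160, which acts on Rab8, Rab10 and Rab14 in insulin-responsive cells, was at 8.19 and 1.56 RPKM (5.24-fold higher in CD4, 4.57 to 6.02). Tbc1d30 was at 4.59 and 1.31 RPKM (3.51-fold, 2.97 to 4.17). Tbc1d16, the third past 2-fold and picked with its value known, was at 8.12 and 3.30 RPKM (2.46-fold, 2.23 to 2.72). Tbc1d1, the close relative of Tbc1d4 and named for that, was at 43.1 and 24.5 RPKM (1.76-fold, 1.68 to 1.84). The highest, Tbc1d10c, a lymphocyte GTPase-activating protein that also restrains calcineurin, was near equal at 280 and 297 RPKM. Of 39 compared exchange factor genes 0 passed 2-fold on the log2(RPKM + 1) scale, and the median was 0.22. On that scale 5 passed 1.5-fold toward CD4 and 4 toward CD8. Together these 9 made 23.1% of the list, beside 15.5% of all compared symbols. Of the 5 toward CD4, Sbf2 was compared only through its CD4 level, at 1.65 and 0.494 RPKM. Without the added 1 RPKM, Sbf2 was 3.33-fold higher in CD4 and Trappc2 2.02-fold higher in CD8, and Dennd2c was past 2-fold too. Als2cl was the highest at 196 and 128 RPKM (1.53-fold, 1.496 to 1.56), followed by Sbf1 at 103 and 84.8. Dennd4c, an exchange factor for Rab10, was at 9.18 and 18.1 RPKM (1.97-fold higher in CD8, 1.86 to 2.08), and Dennd2c at 3.20 and 1.35 (2.38-fold higher in CD4, 1.97 to 2.88).

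Secretory granule effectors differed in opposite directions around Rab27a. Of 23 genes 12 were compared, with a median log2 difference of 0.07. On the log2(RPKM + 1) scale 2 passed 2-fold toward CD4 and 1 toward CD8. At 1.5-fold it was 2 toward CD4 and 3 toward CD8, together 41.7% of the list beside 15.5% of all compared symbols. All 3 toward CD8 were under 1 RPKM in CD4 and were compared only through their CD8 level. The 2 toward CD4 reached 1 RPKM in both libraries. The share of 41.7% thus rests in part on genes that the filter took for their CD8 level. Sytl3, a synaptotagmin-like protein that binds Rab27, was at 0.580 and 16.4 RPKM (28.2-fold higher in CD8, 20.2 to 40.8), from 35 and 953 reads. Sytl2, another Rab27 binder of the same family, was at 6.39 and 1.82 RPKM (3.51-fold higher in CD4, 3.08 to 4.001). Rph3al, also a Rab27 and Rab3 binder and picked with its value known, was at 6.74 and 2.77 RPKM (2.43-fold, 1.80 to 3.33). Toward CD8 the others, also picked with their values known, were Stx11, a syntaxin of granule release, at 0.625 and 1.51 RPKM (2.41-fold, 1.83 to 3.21), and Rims3, at 0.541 and 1.73 RPKM (3.19-fold, 1.67 to 6.503, from 13 and 40 reads). The granule priming gene Unc13d was at 68.1 and 55.8 RPKM, and Stxbp2 at 46.7 and 44.2. The NK cell list was higher in CD8 (73.2 against 37.1 RPKM summed) as Sytl3 was. Of its members, Prf1 had 1755 and 2673 reads, Eomes 168 and 1119, Gzma 12 and 94, Klrb1c 2 and 85 and Ncr1 at most 4 and 0, and Klra8 was listed at 0 in both. The part of such cells in the Sytl3 difference was not tested.

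Recycling effectors included the other large difference toward CD8. Of 19 compared, 1 was at least 2-fold higher in each library on the log2(RPKM + 1) scale. On that scale 5 and 2 passed 1.5-fold, and the median was 0.32. Both directions together, the list held 10.5% past 2-fold and 36.8% past 1.5-fold, beside 5.48% and 15.5% of all compared symbols. Ehd1, an ATPase that shapes recycling endosome tubules, was at 4.07 and 28.2 RPKM (6.92-fold higher in CD8, 6.15 to 7.81), while its relative Ehd3 was at 49.6 and 46.7 RPKM. Mical1, a flavoprotein that acts on actin and binds Rab8 family members, was the highest of the list by the mean of both libraries, at 45.8 and 72.8 RPKM (1.59-fold higher in CD8, 1.53 to 1.66). Mical3 was at 4.76 and 1.87 RPKM (2.55-fold higher in CD4, 2.08 to 3.15), and its log2 difference of 1.01 lay just past the 2-fold rule.

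In the other compartments few effectors passed 1.5-fold. That rule took 7.14% of the early endosome list, 5.88% of the late endosome list and 11.1% of the endoplasmic reticulum and Golgi list. Of all compared symbols it took 15.5%. Of 14 early endosome effector genes 1 passed 1.5-fold, Wdfy2, at 8.03 and 4.15 RPKM (1.93-fold higher in CD4, 1.75 to 2.14), and the list median was 0.00. Appl2 and Pik3c3, the class III phosphatidylinositol kinase, were the highest, at 30.3 and 34.4 RPKM and at 31.2 and 30.5. Tgfbrap1 was 1.40-fold higher in CD4 (1.28 to 1.54). Of 17 late endosome and lysosome effectors, with a median of 0.10, 1 passed 1.5-fold, Rilpl2, at 10.01 and 18.5 RPKM (1.85-fold higher in CD8, 1.61 to 2.13). The tethering subunits Vps16, at 76.7 and 68.4 RPKM, and Vps11, at 37.8 and 26.1 (1.45-fold), and the retromer gene Vps35, at 36.4 and 32.3, were under 1.5-fold. Of 18 endoplasmic reticulum and Golgi effectors 1 passed 1.5-fold each way, and the median was 0.27. Of these genes 14 were above 0 and 4 below, beside 6083 and 4145 of all compared symbols. Uso1, the p115 tether that Rab1 recruits, was at 10.996 and 18.4 RPKM (1.67-fold higher in CD8, 1.55 to 1.81), and Gorasp1 at 4.97 and 2.80 (1.77-fold higher in CD4, 1.51 to 2.09). Neither passed under every setting, with Uso1 at a log2 difference of -0.51 after the sum scaling and -0.55 with a pseudocount of 5 RPKM, and Gorasp1 at 0.57 after centring and 0.35 with that pseudocount. Golga5, at 45.0 and 33.6 RPKM, was the highest after Rab3gap1.

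**Figure D5:**
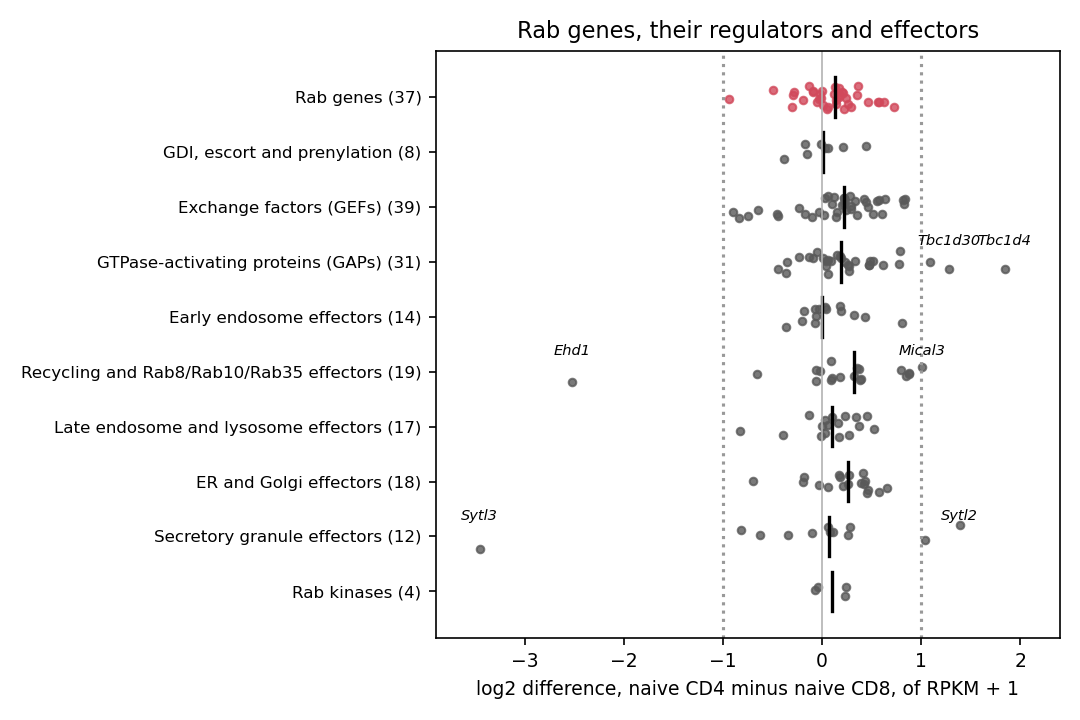
Log2 difference of RPKM + 1 (naive CD4 minus naive CD8) of each compared gene, with 1 row of points for the Rab genes and for each list of regulators and effectors. The number of genes is in brackets, black bars are medians and dotted lines mark 2-fold. All 37 Rab genes lie between the dotted lines, and Sytl3 at -3.46 and Ehd1 at -2.52 lie farthest out.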

How the data were processed

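Ribosomal-RNA-depleted RNA of 1 naive CD4 and 1 naive CD8 sample was sequenced from SOLiD low-input libraries, per the labels' protocols. The submitters' processing notes name TopHat, HTSeq and mm9 and give no version. The sources used here do not give the annotation or the handling of strand and multiply mapped reads. Values were deposited by the authors as RPKM, reads per kilobase scaled to library size. Symbols on several rows (2597 of 23167) carried 1 value and were counted once.

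Whole reads were recovered from the RPKM with Python 3.11.15 and SciPy 1.17.1. The totals were those at which ratios of reads to length came out as fractions within the printed 9 decimals or 10 significant digits, for 12734 of the 12735 genes above 0 in both libraries, and for 0 of 1000 genes tried with the CD8 total moved by 1000. The length nearest to a GENCODE M21 transcript was taken. It was a multiple of the smallest possible one for 14 of the 37 compared Rab genes and for some genes of the other lists. The reads of all these genes may be overstated and their intervals too narrow. Recovered reads summed to 1.08 (CD4) and 1.09 (CD8) times the totals, and the cause was not tested.

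With 1 library per group no test was possible. Differences are log2((CD4 RPKM + 1)/(CD8 RPKM + 1)) of genes with 1 RPKM or more in a library. Single genes are given as a fold of RPKM, and its 95% interval (exact, Clopper-Pearson) follows from how the recovered reads divided between the libraries and covers counting error only. In simulated libraries of 14351 genes both totals were found, as were the reads of 97.1% of genes with reads in both. The simulated lengths were those that the recovery had chosen, so the 97.1% cannot check the choice of length in the deposited values. Genes simulated at 3-fold (63) and 8-fold (69) all passed the 2-fold rule, and 25 of 68 at 1.5-fold passed the 1.5-fold rule. These changed genes were drawn only from genes with many reads. Passing at 3-fold and 8-fold was thus near certain beforehand, and genes with few reads were not covered. Of 9834 unchanged compared genes, 18 passed the 2-fold rule and 45 the 1.5-fold rule. Simulated reads varied by counting error only, so these counts are not an error rate for the deposited libraries.

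The members, roles and lists were chosen with earlier results of these data known. Named were the 3 highest members of each role, members past 1.5-fold, and of each other list the 2 highest genes and the 2 with the largest difference. Other genes are said to be outside this rule, or are given among the members. A gene that the rule takes is not reported here. Pseudocounts of 0.1 and 5, filters at 0 and 5 RPKM, 2 other scalings and symbols on 1 row only were tried, and no pseudocount was added after seeing the data. Promoter windows are from RefSeq on GRCm38.p6, another build than that of the files, and gene overlaps from GENCODE M21.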

Additional observations from a re-analysis of the deposited data

How the results depend on the processing

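With 1 library per group nothing could be left out. No paired analysis was possible because each group has 1 sample and the labels give no replicate numbers. The 2-fold count of Rab genes was 0, and was 1 (Rab18) with a pseudocount of 0.1 RPKM, with centring on the median gene and with no pseudocount. The 1.5-fold count of 3 was 6 with a pseudocount of 0.1, with the sum scaling and with no pseudocount, when Rab22a, Rab24 and Rab3a joined, and 1 with a pseudocount of 5. The Rab median of 0.13 was 0.14 with a pseudocount of 0.1 and with none, 0.10 with 5, 0.016 with no filter, 0.13 with a filter at 5 RPKM, 0.046 after centring and 0.35 after the sum scaling. Over all compared genes the median was then 0.09, 0.09, 0.06, 0.00, 0.08, 0.00 and 0.29 in that order of settings. The 2-fold count of regulators and effectors, 8, was 14 with a pseudocount of 0.1, 3 with 5, 18 with the sum scaling and 15 with no pseudocount. For 53 named genes, 394 of 413 values under these settings stayed on the same side of 1.5-fold, 19 did not, and 0 of those past it reversed. Of these 19, Mical3, at 0.51, Wdfy2, at 0.51, and Dennd2c, at 0.37, fell under it with a pseudocount of 5, Als2cl, at 0.53, after centring, and Mical1, at -0.45, after the sum scaling. Depth limits the low members, since those under 1 RPKM had at most 89 reads.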
